A study of Mus musculus with 24 samples.

Results

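The genes of cholesterol and fatty acid synthesis were followed in mouse embryonic stem cells (ESCs) and expanded potential stem cells (EPSCs). Their members were taken from a given list of 31 gene symbols matched to the symbols in both deposited tables, and no expression value entered that rule. Each table held 30 of the 31, out of 23095 genes listed in the first table and 25476 in the second. Hmgcs1 was not analysed here. By role, the 30 genes were 5 enzymes of the mevalonate pathway, 11 enzymes from squalene to cholesterol, 5 genes of control and transport, and 9 genes of fatty acid synthesis.

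Poly(A) RNA was sequenced in 24 libraries, 2 in each of 12 groups. The first table holds wild-type J1 cells, an ESC line, in 3 states. J1 ESCs grew in serum medium with 15% FBS, LIF and 2i, that is, the GSK3 inhibitor CHIR99021 and the MEK inhibitor PD0325901. J1 D-EPSCs (labelled Deng) grew in N2B27 with 5% KSR, a serum replacement, and with LIF, CHIR99021, dimethindene maleate and minocycline hydrochloride. J1 L-EPSCs (labelled Liu) grew with 20% KSR, LIF, CHIR99021, PD0325901, the Src inhibitor A-419259, XAV939, JNK inhibitor VIII and the p38 inhibitor SB203580. The second table holds 3 tet-off lines, ZHBTc4 (Oct4-cKO), 2TS22C (Sox2-cKO) and NgcKO (Nanog-cKO). In each line the endogenous gene is deleted, and a transgene that doxycycline (Dox) switches off supplies the factor, so the untreated controls carry the deletion too. Each line was sequenced as untreated ESCs, as untreated L-EPSCs made from them, and as L-EPSCs with Dox. The medium of the tet-off ESCs and the length of the Dox treatment behind these libraries are not given in the sources used here. Each line is a single established line, and nothing says that the 2 libraries of a group came from separate cultures, so the p-values measure the spread between these libraries, which may be technical.

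Cells build cholesterol from acetyl-CoA through mevalonate, squalene and lanosterol, and they build fatty acids from the same acetyl-CoA through malonyl-CoA. SREBP transcription factors, encoded by Srebf1 and Srebf2, switch on most of these enzymes. When sterols are scarce, Scap carries the SREBPs from the endoplasmic reticulum to the Golgi for cleavage, and when sterols are plentiful, Insig proteins hold that complex back. Most of the enzymes and Insig1 itself are classical SREBP targets, and serum in the medium brings lipoproteins that supply sterols.

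Promoters are shown for 6 members, because Srebf2 encodes the factor of the sterol branch, Insig1, Cyp51 and Msmo1 were higher in L-EPSCs than in ESCs of all 3 tet-off lines, Fasn was lower there, and Fads2 fell most with Dox in the Oct4-cKO line. The sequences are those of RefSeq on build GRCm38.p6, given 5′ to 3′ on the strand of the gene, and each covers the 250 bases before the annotated start. Capitals mark matches on either strand to CCAAT (bound by NF-Y), to GGGCGG (bound by Sp1) and to TCACNCCA (the core of the classical sterol response element). The windows lie at chr15:82147019-82147268 on the plus strand (Srebf2), chr5:28071162-28071411 on the plus strand (Insig1), chr5:4104698-4104947 on the minus strand (Cyp51), chr8:64733579-64733828 on the minus strand (Msmo1), chr11:120824548-120824797 on the minus strand (Fasn) and chr19:10101504-10101753 on the minus strand (Fads2).
Srebf2 promoter: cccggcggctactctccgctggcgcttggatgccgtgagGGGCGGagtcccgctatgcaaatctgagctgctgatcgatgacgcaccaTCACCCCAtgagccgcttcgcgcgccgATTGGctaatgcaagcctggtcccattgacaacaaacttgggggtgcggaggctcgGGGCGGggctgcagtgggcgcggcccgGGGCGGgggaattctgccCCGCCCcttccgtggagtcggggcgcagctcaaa
Insig1 promoter: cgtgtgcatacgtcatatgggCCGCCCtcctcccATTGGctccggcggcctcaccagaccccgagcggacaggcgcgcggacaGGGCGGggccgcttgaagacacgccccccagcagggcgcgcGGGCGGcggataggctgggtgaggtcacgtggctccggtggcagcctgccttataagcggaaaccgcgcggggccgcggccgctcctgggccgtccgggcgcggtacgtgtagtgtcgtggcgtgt
Cyp51 promoter: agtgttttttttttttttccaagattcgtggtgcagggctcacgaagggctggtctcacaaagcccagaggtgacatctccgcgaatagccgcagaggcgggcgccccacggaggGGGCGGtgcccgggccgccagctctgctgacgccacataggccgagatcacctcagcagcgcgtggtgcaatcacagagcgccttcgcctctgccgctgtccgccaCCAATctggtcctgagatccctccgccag
Msmo1 promoter: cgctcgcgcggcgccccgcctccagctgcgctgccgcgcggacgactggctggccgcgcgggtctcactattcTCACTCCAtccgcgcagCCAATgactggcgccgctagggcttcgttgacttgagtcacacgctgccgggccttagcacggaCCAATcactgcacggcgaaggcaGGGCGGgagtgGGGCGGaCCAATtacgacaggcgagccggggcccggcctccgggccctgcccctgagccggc
Fasn promoter: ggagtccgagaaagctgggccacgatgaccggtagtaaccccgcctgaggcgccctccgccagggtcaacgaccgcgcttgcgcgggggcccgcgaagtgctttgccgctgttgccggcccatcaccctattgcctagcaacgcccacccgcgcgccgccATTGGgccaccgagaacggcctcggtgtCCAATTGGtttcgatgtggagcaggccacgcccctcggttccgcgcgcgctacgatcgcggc
Fads2 promoter: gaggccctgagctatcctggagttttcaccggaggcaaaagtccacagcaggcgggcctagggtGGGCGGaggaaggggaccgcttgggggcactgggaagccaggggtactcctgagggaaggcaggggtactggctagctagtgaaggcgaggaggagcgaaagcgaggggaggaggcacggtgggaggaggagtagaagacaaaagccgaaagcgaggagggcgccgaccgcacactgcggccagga

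The letters CCAAT stood in this window in 18 of the 23 measured members with a RefSeq promoter, and in 33.9% of all 32851 promoters of the same length. GGGCGG stood in 19 of the 23, and in 32.7% of all promoters. TCACNCCA stood in Srebf2 and Msmo1, which is 2 of the 23, and in 3.67% of all promoters. Among the members, 4 have more than 1 listed start, which gave them more windows to match. In Srebf2 the TCACNCCA match stood 155 bases before the start, with an inverted CCAAT at 131 bases. Msmo1 held 3 CCAAT matches, at 156, 92 and 51 bases, and its TCACNCCA match was at 170 bases. Fasn held CCAAT at 58 bases and inverted copies at 86 and 55 bases. Insig1 had an inverted CCAAT at 212 bases, Cyp51 had CCAAT at 25 bases, and Fads2 had no CCAAT in the window. The matches describe these letters and are not binding sites shown by these data.

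The libraries held between 10807631 and 15069899 reads on genes, and the least covered member value was 62 reads (Tm7sf2 in Oct4-cKO L-EPSCs with Dox). The targeted genes followed the labels. With Dox, Pou5f1 (Oct4) went from 6420 and 6316 to 162 and 184 normalized counts in the Oct4-cKO line, Sox2 from 4966 and 4701 to 47.0 and 53.1 in the Sox2-cKO line, and Nanog from 9119 and 8847 to 3166 and 3112 in the Nanog-cKO line. Spry4, which falls when MEK is inhibited and was chosen for this check after its values were seen, had 94.4 and 101 normalized counts in J1 ESCs, 1800 and 1661 in J1 D-EPSCs and 2872 and 2931 in J1 L-EPSCs, although the media of both J1 ESCs and J1 L-EPSCs are listed with a MEK inhibitor. In the tet-off lines Spry4 lay between 908 and 3051 in ESCs and between 20.2 and 38.7 in L-EPSCs. Dusp6, chosen in the same way, had 73.7 and 80.2, 763 and 742, and 1210 and 1168 in the 3 J1 states. Nanog had 10085 and 10130 in J1 ESCs, 2787 and 2801 in J1 D-EPSCs and 4615 and 4363 in J1 L-EPSCs. Axin2 had 767 and 706 in J1 ESCs, 109 and 88.1 in J1 D-EPSCs and 708 and 714 in J1 L-EPSCs. Cdx1 had means of 848, 1.49 and 508 in the same states. From tet-off ESCs to untreated L-EPSCs mean Axin2 went from 223 to 66.5 (Oct4-cKO), 144 to 69.2 (Sox2-cKO) and 310 to 126 (Nanog-cKO). Mean Cdx1 was higher in these L-EPSCs in each line. The J1 groups are used as labelled. Whether their labels and listed media hold was not tested, and all J1 comparisons below rest on them. The 10 fibroblast genes summed to between 97493 and 100120 normalized counts in J1 ESCs, 59689 and 60153 in J1 D-EPSCs and 20056 and 20723 in J1 L-EPSCs. The 9 macrophage genes summed to between 2485 and 2491, 20350 and 20395, and 16469 and 16582 in the same groups. In the tet-off lines the sums over 9 of the fibroblast genes were at most 663, with Lum at 0 in every library but Oct4-cKO L-EPSC replicate 1, and the macrophage sums at most 827. In bulk RNA, fewer cells of a type and less RNA per cell cannot be told apart.

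In J1 cells most of these genes had their lowest levels in D-EPSCs. The 30 genes together took 8863 and 8855 reads per 1000000 reads in ESCs, 3654 and 3642 in D-EPSCs, and 6585 and 6659 in L-EPSCs. D-EPSCs thus lay lowest and ESCs highest. The 16 sterol synthesis enzymes summed to 23203 and 22819 normalized counts in ESCs, 12922 and 12863 in D-EPSCs and 23578 and 24016 in L-EPSCs. The 9 fatty acid genes summed to 84677 and 84786, 27610 and 27420, and 53796 and 54227. The sterol branch was thus at about the ESC level in L-EPSCs, and the fatty acid branch was between the other states.

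**Figure D1:**
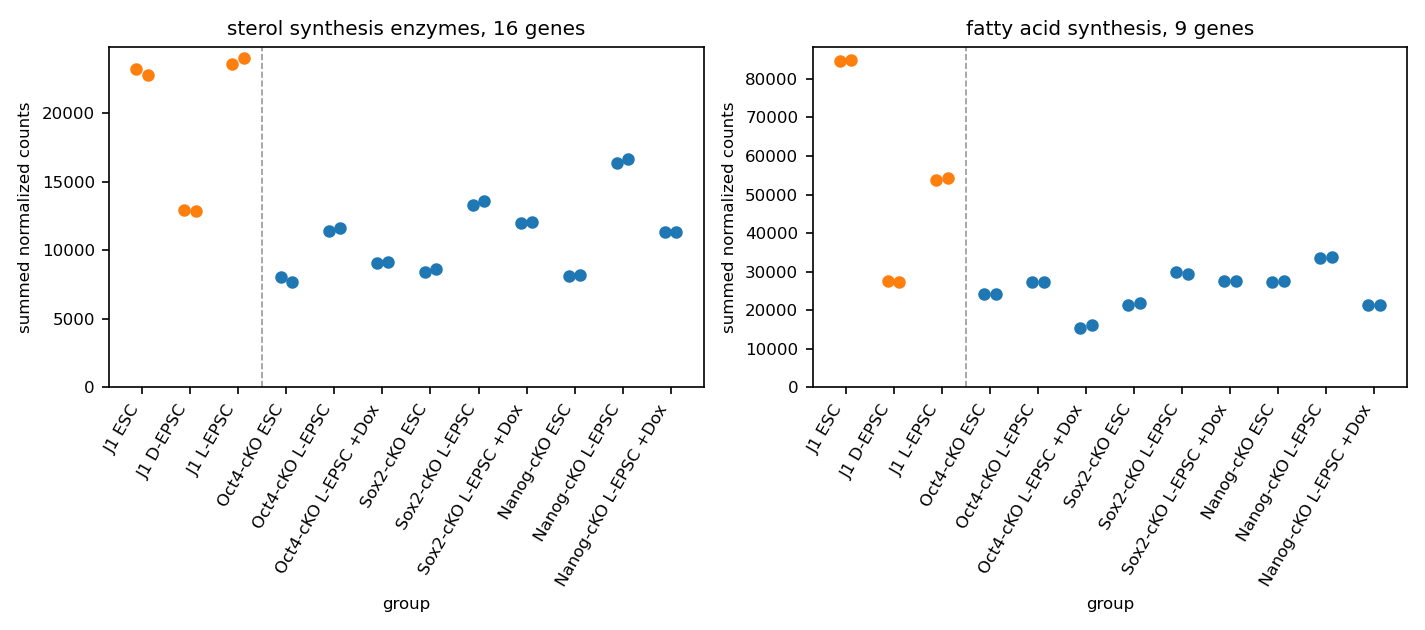
Summed normalized counts (y axis, from 0) of the 16 sterol synthesis enzymes (left) and the 9 fatty acid synthesis genes (right) in each of the 12 groups (x axis). Points are single libraries, orange for the J1 table and blue for the tet-off table, which were normalized separately and are split by the dashed line. In the J1 table D-EPSCs were lowest in both panels, and in each tet-off line the sums of untreated L-EPSCs were above those of ESCs. Taken singly, 5, 7 and 5 of the 9 fatty acid genes had fitted values above their ESC level (Oct4-cKO, Sox2-cKO, Nanog-cKO). The other 4, 2 and 4 were below it. Scd1 and Scd2 were higher and Fasn was lower in each line.

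For the tests, limma was fitted to log2(normalized count + 1) over all genes tested, and a gene was called when its Benjamini-Hochberg adjusted p was under 0.05 and its log2 fold change was beyond 0.6 between states or beyond 1 with Dox. Between J1 D-EPSCs and J1 ESCs 26 of 30 members were called lower, against 9.98% of all 21533 genes tested. No member was called higher, against 10.8% of all genes, and also no member was above 0 at an unadjusted p under 0.05 or called higher by edgeR or DESeq2. The median log2 fold change of the members was -0.93, and that of all genes was 0.013. The fit of these 2 groups alone, without the J1 L-EPSC libraries, also called 26 lower. By role, 5 of 5 mevalonate enzymes, 8 of 11 squalene and sterol enzymes, 4 of 5 control genes and 9 of 9 fatty acid genes were lower.

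The stearoyl-CoA desaturases, which place the first double bond in saturated fatty acids, stood at the lower end. Scd1 had 9693 and 9569 normalized counts in ESCs and 1409 and 1334 in D-EPSCs, and it was 7.02-fold lower (log2 fold change -2.81, SE 0.04, adjusted p = 7.81e-09). Scd2 had 30977 and 31224 in ESCs and 5556 and 5541 in D-EPSCs, and it was 5.60-fold lower (log2 fold change -2.49, SE 0.02). Both genes were low in both D-EPSC libraries, with no overlap between groups. Counting both directions, the groups did not overlap for 64.8% of all genes tested in this comparison of 2 against 2 libraries. Scd1 and Scd2 are close paralogs on chromosome 19 (NCBIM37, 44468941 to 44482199 and 44368166 to 44381354), so reads from shared stretches make their split uncertain. Fads2, the delta-6 desaturase of polyunsaturated fatty acids, had 2540 and 2544 in ESCs and 939 and 948 in D-EPSCs, 2.69-fold lower. Elovl6, which elongates palmitate, was 2.63-fold lower, and Fasn, the fatty acid synthase itself, was 2.35-fold lower. Acly, which releases acetyl-CoA from citrate, and Acaca, which makes malonyl-CoA, were 1.76-fold and 1.90-fold lower. Acss2, which makes acetyl-CoA from acetate, was 1.64-fold lower, and Fads1, the delta-5 desaturase, was 1.93-fold lower.

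In the sterol branch the falls in D-EPSCs were smaller and more even. Ebp, the sterol isomerase, was 2.61-fold lower, Tm7sf2, a sterol C14 reductase, was 2.45-fold lower, and Fdft1, which makes squalene, was 2.18-fold lower. The mevalonate enzymes Mvk and Pmvk, both kinases, were 1.61-fold and 2.01-fold lower. Mvd, the decarboxylase, was 1.92-fold lower, Idi1, the isomerase, 1.67-fold lower, and Fdps, which makes farnesyl diphosphate, 2.02-fold lower. Not called were Sqle, the squalene epoxidase (log2 fold change -0.55), Cyp51, the lanosterol demethylase (-0.38), Sc5d, a late desaturase (-0.56), and Scap (-0.06). The first 3 of these passed the adjusted p but not the fold change, and Scap had an adjusted p of 0.318.

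Relative to J1 ESCs, J1 L-EPSCs had lower values chiefly in the fatty acid branch. No member was called higher, against 8.8% of all genes, and 5 of 30 were called lower, against 11.5%. EdgeR and DESeq2 also called no member higher, while 8 members were above 0 at an unadjusted p under 0.05. The median log2 fold change was -0.18 over the members and 0 over all genes. Scd1 was 2.27-fold lower, with 4126 and 4369 normalized counts in L-EPSCs. Scd2 was 1.70-fold lower, with 18292 and 18396. Fads2 was 1.66-fold lower, with 1475 and 1583. Fasn (log2 fold change -0.62) and Srebf1 (-0.65) were just beyond the threshold. In each of these 5 genes both L-EPSC libraries were below both ESC libraries, as for 32.4% of all genes. None of the 16 sterol enzymes was called, and their log2 fold changes ran from -0.54 to 0.48. Of those, Msmo1, a sterol demethylating oxidase, was at 0.48 and Dhcr7, the last reductase, at 0.36, both past the adjusted p.

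Between the 2 EPSC states, L-EPSCs had 22 of 30 members called higher than D-EPSCs, against 4.8% of all genes. No member was called lower, against 8.58%, by limma, edgeR or DESeq2, and 1 member (Scap, log2 fold change -0.32) was below 0 at an unadjusted p under 0.05. The median of the members was 0.79, and that of all genes was 0. This comparison uses the same L-EPSC and D-EPSC libraries as the other J1 comparisons. Scd2 was 3.31-fold higher and Scd1 3.10-fold higher in L-EPSCs. Insig1, the sterol-sensing retention factor, had 586 and 682 normalized counts in D-EPSCs and 1787 and 1784 in L-EPSCs, 2.82-fold higher. Tm7sf2 and Stard4, a cholesterol carrier of the cytosol, were 2.57-fold and 2.56-fold higher. By role, 13 of 16 sterol enzymes, 2 of 5 control genes and 7 of 9 fatty acid genes were higher. The sums of fibroblast and macrophage genes given above moved with these J1 states, and their part in the results was not tested. Medium, compounds and cell state change together in these groups and cannot be told apart.

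**Figure D2:**
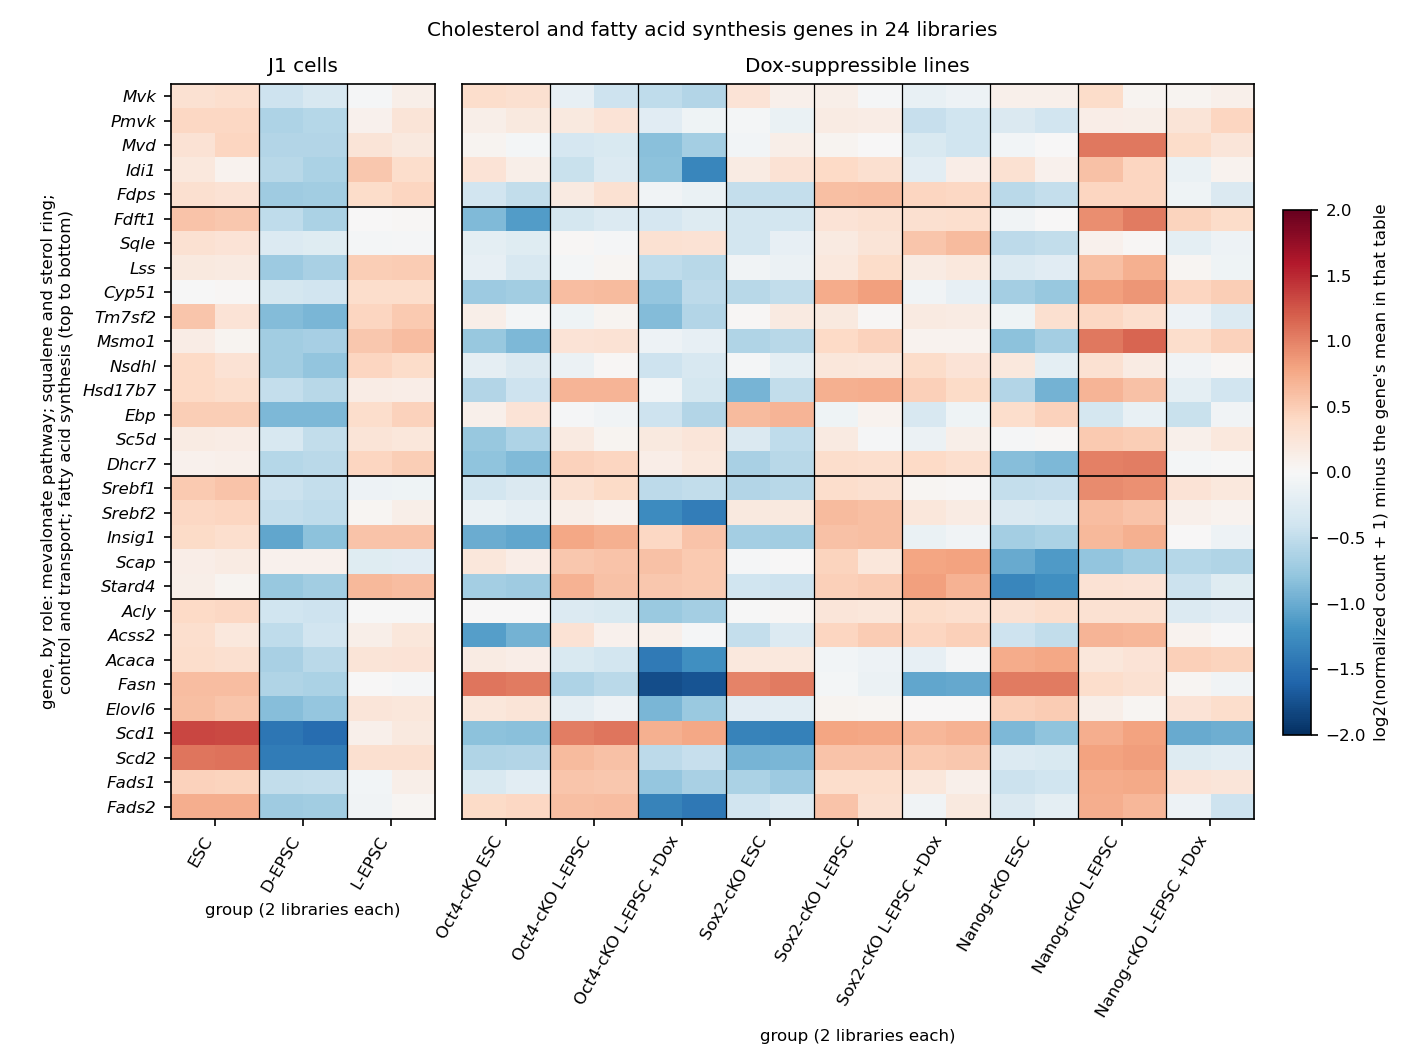
Heat map of the 30 genes (rows, in the order of the 4 roles) in the 24 libraries (columns, 2 for each group), drawn within each table. Colour is log2(normalized count + 1) minus the mean of that gene over the libraries of the table, from blue (2 below) to red (2 above). J1 D-EPSCs are blue for most genes, and the untreated L-EPSCs of the tet-off lines are red for Cyp51, Msmo1, Dhcr7, Scd1 and Scd2, while Fasn is reddest in the ESCs.

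The second question was how these genes differed between the tet-off ESCs and the L-EPSCs made from them. In all 3 lines part of the sterol enzymes and the desaturases Scd1, Scd2 and Fads1 were higher in L-EPSCs, and Fasn was lower. Of the 16 sterol enzymes 7, 6 and 8 were called higher and 1, 1 and 1 lower in the Oct4-cKO, Sox2-cKO and Nanog-cKO lines. Of the 9 fatty acid genes 4, 5 and 5 were called higher and 1, 1 and 1 lower. In the Oct4-cKO line 14 of 30 members were called higher, against 13.0% of all 24007 genes tested, and 2 lower, against 15.4%. In the Sox2-cKO line 14 were called higher, against 7.99%, and 2 lower, against 11.6%. In the Nanog-cKO line 17 were called higher, against 12.2%, and 2 lower, against 14.7%. The medians of the members were 0.31, 0.48 and 0.92 on the log2 scale, and those of all genes were 0. The summed trophoblast genes went from between 2960 and 2971 to between 7756 and 8008 normalized counts (Oct4-cKO), from between 8135 and 8146 to between 4176 and 4293 (Sox2-cKO) and from about 1421 to between 3124 and 3188 (Nanog-cKO). The 8 pluripotency genes summed to between 73196 and 73816, 59767 and 60490, and 82682 and 84139 in these ESCs, and to between 44302 and 45205, 49256 and 49395, and 51267 and 52171 in the L-EPSCs. Their part in the conversion results was not tested. The medium of the tet-off ESCs is not given, so medium, compounds and cell state cannot be told apart here either. The 3 lines share no library, but they were normalized together and share 1 fit with 1 estimate of the spread. In all 3 of them 13 members were called higher: Fdps, Fdft1, Cyp51, Msmo1, Hsd17b7, Dhcr7, Srebf1, Insig1, Stard4, Acss2, Scd1, Scd2 and Fads1. The share of all genes called higher in all 3 lines was not counted, so this number has no background beside it.

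Scd1 had the highest fold change of the members in the Oct4-cKO and Sox2-cKO lines and the third highest, after Dhcr7 and Msmo1, in the Nanog-cKO line. It had 1263 and 1243 normalized counts in ESCs and 4529 and 4706 in L-EPSCs of the Oct4-cKO line, 3.68-fold higher (log2 fold change 1.88, SE 0.04, adjusted p = 3.09e-15). In the Sox2-cKO line it went from 878 and 874 to 3861 and 3810, 4.37-fold higher, and in the Nanog-cKO line from 1192 and 1278 to 3678 and 3914, 3.07-fold higher. Scd2 was 2.31-fold, 2.81-fold and 2.16-fold higher in the same lines. In no line did the groups overlap for either gene, while 30.1%, 27.8% and 28.1% of all genes had both L-EPSC libraries above both ESC libraries. In J1 cells both genes were lower in L-EPSCs than in ESCs, as given above. The difference between J1 and the tet-off lines was not tested, and whether their ESCs shared a medium is not known.

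Fasn moved the other way from the desaturases. It had 7383 and 7260 normalized counts in Oct4-cKO ESCs and 2296 and 2433 in L-EPSCs, 3.10-fold lower (log2 fold change -1.63, SE 0.04, adjusted p = 1.24e-14). It fell from 7030 and 7241 to 3442 and 3255 in the Sox2-cKO line, 2.13-fold lower, and from 7234 and 7244 to 4487 and 4359 in the Nanog-cKO line, 1.64-fold lower. In each line both L-EPSC libraries were below both ESC libraries, as for 33.2%, 31.5% and 31.3% of all genes. Acaca, the step before Fasn, was below 0 in all 3 lines without being called, at -0.48, -0.30 and -0.51. Ebp was lower in the Sox2-cKO line, from 391 and 401 to 237 and 262, and in the Nanog-cKO line, from 319 and 345 to 197 and 226. These calls of Ebp are near the threshold, at -0.67 and -0.65. The first was lost without Sox2-cKO L-EPSC replicate 1 (-0.59), and the second without Nanog-cKO ESC replicate 2 (-0.59) or L-EPSC replicate 1 (-0.55), each of which leaves 1 member lower. Mvk was lower in the Oct4-cKO line, from 354 and 347 to 248 and 208 (log2 fold change -0.62), a call lost without L-EPSC replicate 2 (-0.50) and in edgeR (-0.60), which leaves 1 member lower there too.

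Among the sterol enzymes, Cyp51 had 563 and 575 normalized counts in Oct4-cKO ESCs and 1440 and 1453 in L-EPSCs, 2.54-fold higher, and it was 2.47-fold and 2.97-fold higher in the Sox2-cKO and Nanog-cKO lines. Hsd17b7, a sterol ketoreductase, had 126 and 171 in Sox2-cKO ESCs and 396 and 398 in L-EPSCs, 2.69-fold higher. Dhcr7 had 509 and 489 in Nanog-cKO ESCs and 1836 and 1865 in L-EPSCs, 3.70-fold higher. Msmo1 had 547 and 599 in Nanog-cKO ESCs and 2012 and 2171 in L-EPSCs, 3.65-fold higher. Both L-EPSC libraries were above both ESC libraries for each of these 4 enzymes in the lines named. The same held for 30.1%, 27.8% and 28.1% of all genes in the Oct4-cKO, Sox2-cKO and Nanog-cKO lines. Among the upstream mevalonate enzymes, Fdps was 1.61-fold, 2.12-fold and 1.92-fold higher. The rise of Fdft1 in the Oct4-cKO line (log2 fold change 0.69) was not called without ESC replicate 2 (0.58). Sc5d was called higher in the Oct4-cKO line (0.80), Fads2 in the Sox2-cKO and Nanog-cKO lines (0.77 and 0.94), and Mvd, Lss, the cyclase that makes lanosterol, and Srebf2 in the Nanog-cKO line (1.08, 0.91 and 0.89).

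The effect of conversion was then compared between lines with a test of the difference itself. Of the 30 members, Mvd was called in the Oct4-cKO against the Nanog-cKO line, against 8.58% of all genes, and in the Sox2-cKO against the Nanog-cKO line, against 9.16%. Mvd went from 497 and 513 to 1070 and 1066 normalized counts in the Nanog-cKO line, from 535 and 502 to 407 and 418 in the Oct4-cKO line, and from 494 and 559 to 536 and 517 in the Sox2-cKO line. It thus rose in the Nanog-cKO line alone by the call used here. Its conversion effect was lower by 1.41 (SE 0.10) in the Oct4-cKO line and by 1.08 (SE 0.10) in the Sox2-cKO line than in the Nanog-cKO line on the log2 scale, and the second call was lost without Sox2-cKO ESC replicate 2 (-0.99), which leaves no member called. Between the Oct4-cKO and Sox2-cKO lines no member was called in limma, edgeR or DESeq2, against 5.36% of all genes, while 6 were above 0 and 15 below 0 at an unadjusted p under 0.05.

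**Figure D3:**
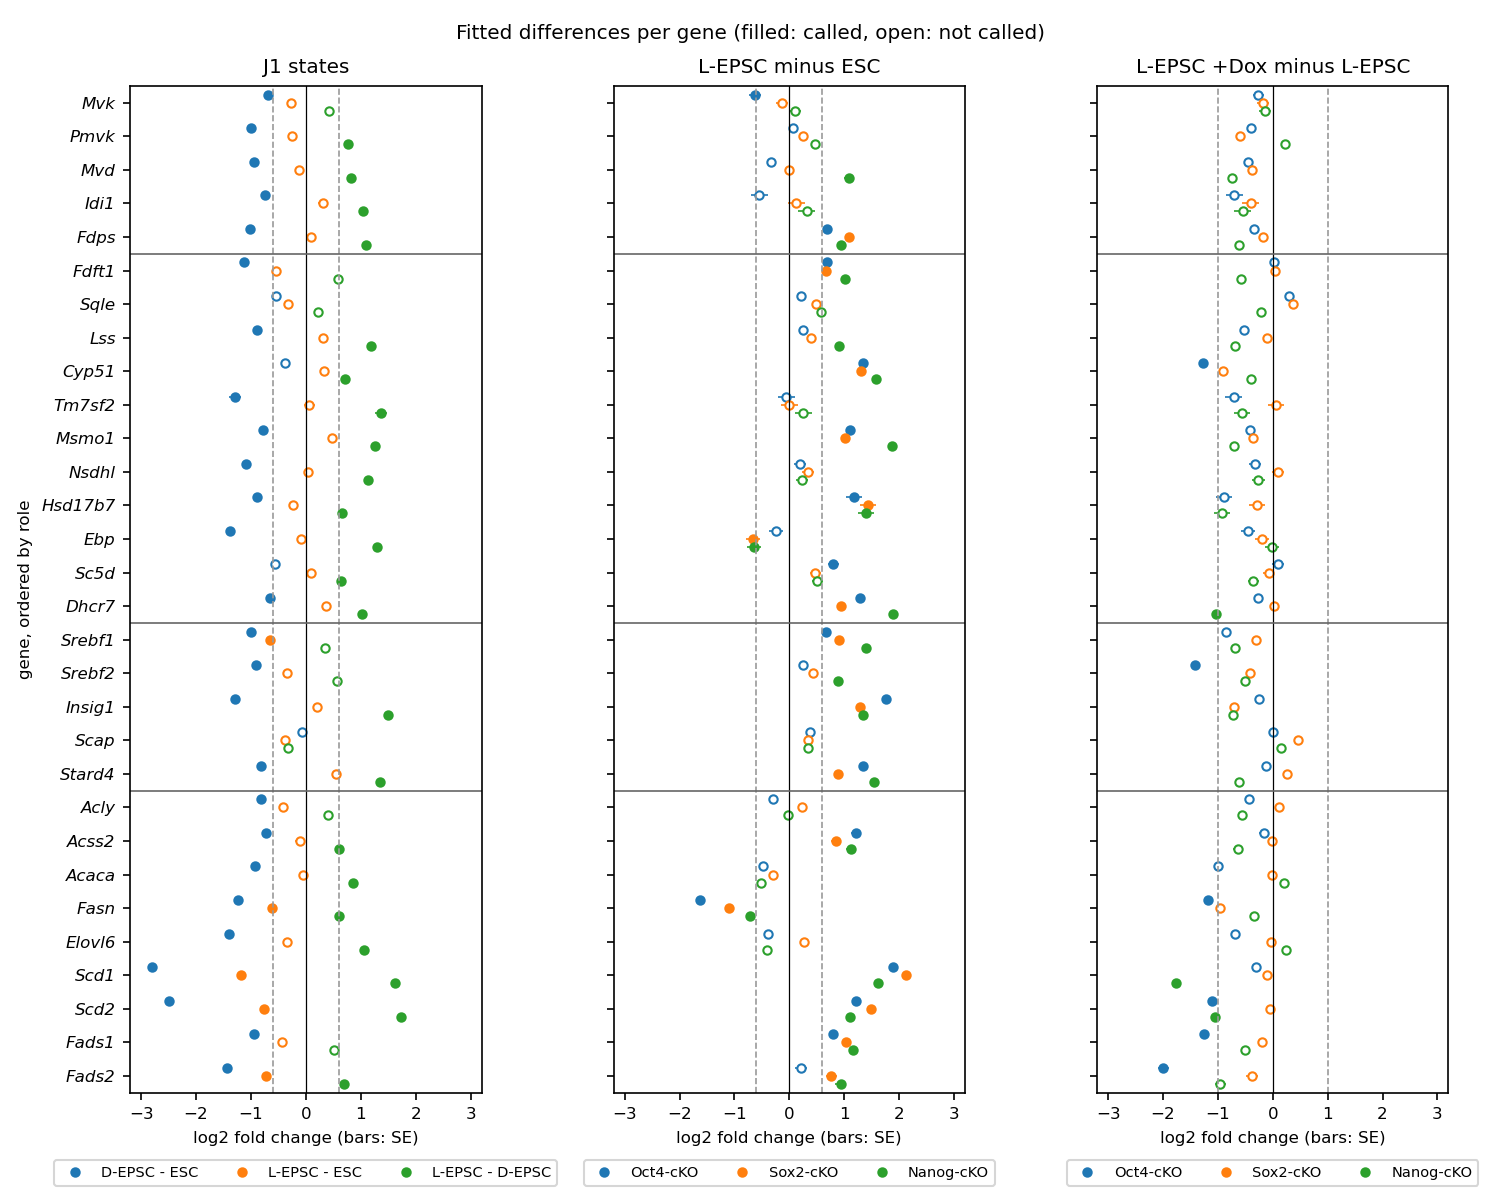
Fitted log2 fold changes (x axis) with standard errors (bars) for the 30 genes (y axis, in order of role), for the 3 J1 comparisons (left), L-EPSCs minus ESCs of each tet-off line (middle) and Dox-treated minus untreated L-EPSCs (right). Filled points were called, open points were not, and dashed lines mark the fold change threshold of 0.6 or 1. D-EPSCs minus ESCs lie below 0 for all genes, Scd1 lies at 1.62 to 2.13 and Fasn at -1.63 to -0.71 in the middle panel.

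The third question was what differed with Dox, which came with loss of Oct4 or Sox2 or reduction of Nanog transcripts in L-EPSCs. No library is of Dox-treated cells without a Dox-suppressed transgene. An effect of Dox itself and an effect of the lost factor therefore cannot be told apart. All calls were downward. In the Oct4-cKO line 6 of 30 members were called lower, against 10.8% of all genes. In the Nanog-cKO line 3 were called lower, against 2.59%, and in the Sox2-cKO line 0 were, against 7.32%. No member was called higher in any line, against 8.53%, 7.79% and 2.8% of all genes in the Oct4-cKO, Sox2-cKO and Nanog-cKO lines, in limma, edgeR and DESeq2, while 1, 4 and 4 were above 0 at an unadjusted p under 0.05. In the Sox2-cKO line 13 members were below 0 at an unadjusted p under 0.05, and edgeR and DESeq2 called 0. The medians of the members were -0.43, -0.14 and -0.56, and those of all genes were 0. The 30 genes took 3946 and 3969 reads per 1000000 reads before and 2507 and 2566 after Dox in the Oct4-cKO line, 4407 and 4387 before and 4053 and 4047 after in the Sox2-cKO line, and 4874 and 4924 before and 3329 and 3318 after in the Nanog-cKO line. The untreated L-EPSC libraries of these comparisons are those of the comparisons with ESCs.

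In the Oct4-cKO line Fads2 had 778 and 786 normalized counts untreated and 202 and 190 with Dox, 3.98-fold lower (log2 fold change -1.99, SE 0.10, adjusted p = 8.62e-11). Srebf2 went from 3770 and 3653 to 1460 and 1336, 2.66-fold lower. Cyp51 went from 1440 and 1453 to 548 and 648, 2.42-fold lower. Fads1 (2.39-fold), Fasn (2.25-fold) and Scd2 (2.15-fold) were lower as well. Both Dox libraries were below both untreated libraries for these 6 genes, as for 30.4% of all genes. Acaca was next, at -0.99, and was not called. The remaining members included Sqle, at 0.30 above 0 and past the adjusted p but not the fold change.

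In the Nanog-cKO line the lowest fold change was that of Scd1, from 3678 and 3914 normalized counts to 1108 and 1129, 3.39-fold lower (log2 fold change -1.76, SE 0.04, adjusted p = 6.95e-14). Scd2 went from 11513 and 11793 to 5512 and 5729, 2.07-fold lower, and Dhcr7 from 1836 and 1865 to 892 and 914, 2.05-fold lower. Both Dox libraries lay below both untreated libraries for these genes, as for 24.4% of all genes. Without Nanog-cKO L-EPSC +Dox replicate 1, Hsd17b7 (-1.02) and Fads2 (-1.11) were called as well, which makes 5. In the Sox2-cKO line the lowest values were those of Fasn, from 3442 and 3255 to 1708 and 1729 (log2 fold change -0.96), and Cyp51, from 1571 and 1649 to 891 and 834 (-0.90). Both passed the adjusted p and lay just inside the threshold of 1. Without Sox2-cKO L-EPSC replicate 2, or with each library centred on its median, Fasn was called and the count was 1.

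**Figure D4:**
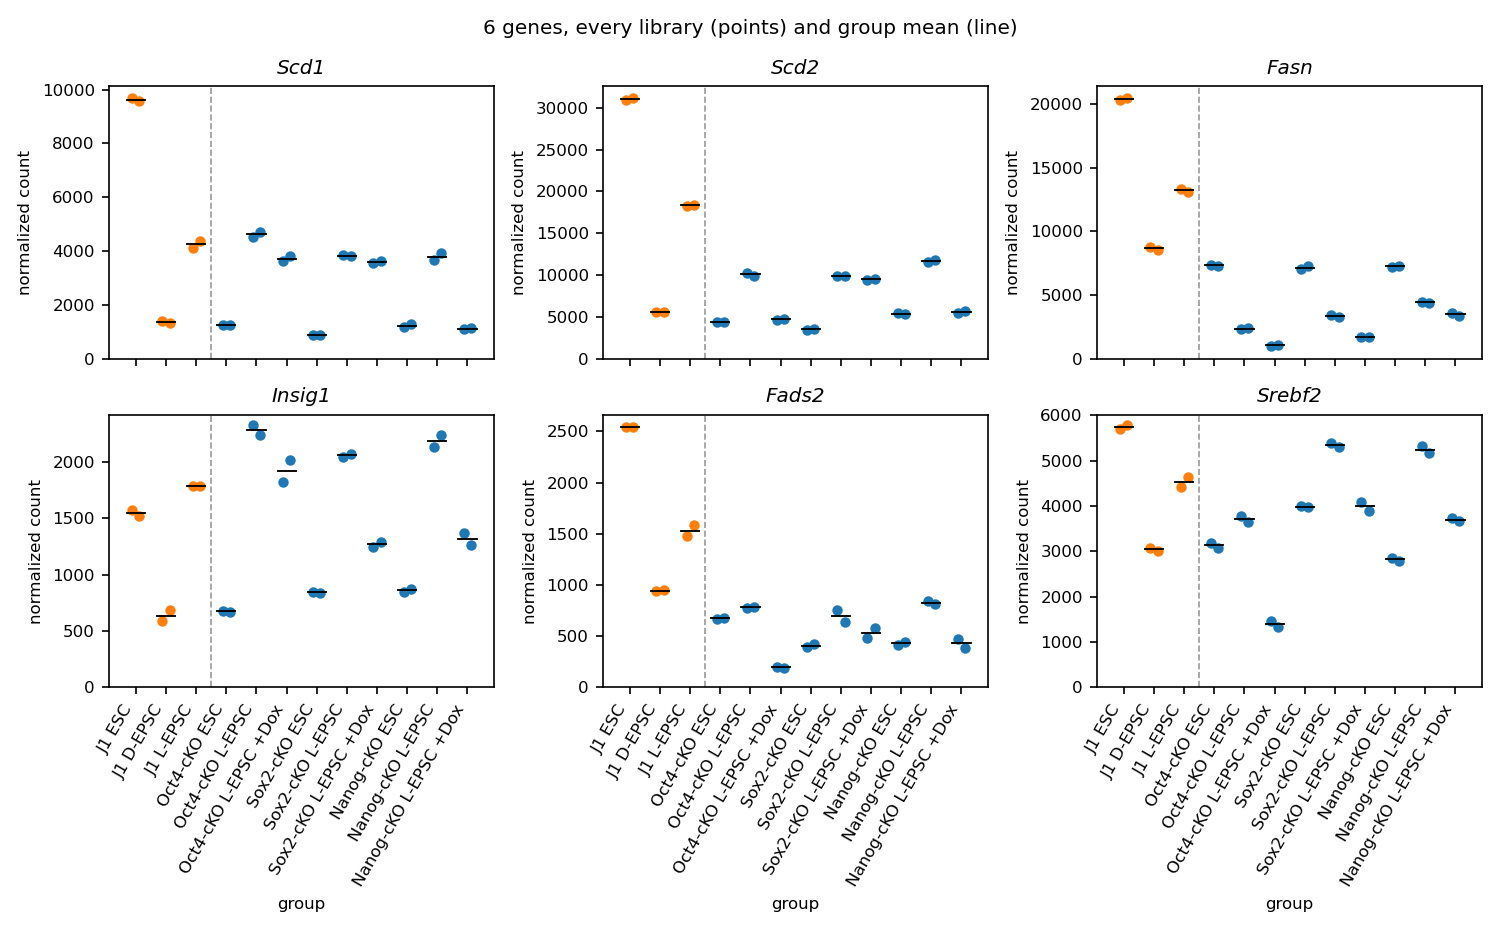
Normalized counts (y axes, from 0) of Scd1, Scd2, Fasn, Insig1, Fads2 and Srebf2 in the 12 groups (x axis). Points are single libraries, orange for J1 and blue for the tet-off lines, lines are group means, and the dashed line splits the separately normalized tables. Scd1 fell with Dox in the Nanog-cKO line, Srebf2 and Fads2 were lowest in Oct4-cKO L-EPSCs with Dox, and Fasn was lower in L-EPSCs than in ESCs of each line.

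Differences of the Dox effect between lines were called in 3 members for each pair of lines, against 6.81% of all genes (Oct4-cKO against Sox2-cKO), 14.8% (Oct4-cKO against Nanog-cKO) and 11.3% (Sox2-cKO against Nanog-cKO). Whether the members differ from all genes was not tested. The pairs reuse the same libraries, and Scd1, Scd2 and Fads2 were each called in more than 1 pair. Scd2 (-1.05), Fads1 (-1.07) and Fads2 (-1.62) fell more in the Oct4-cKO than in the Sox2-cKO line on the log2 scale. Acaca (-1.20) and Fads2 (-1.04) had lower Dox effects in the Oct4-cKO than in the Nanog-cKO line, and Scd1 a higher one (1.45). The call of Fads2 in that pair was lost without Nanog-cKO L-EPSC +Dox replicate 1 (-0.89) or Oct4-cKO L-EPSC +Dox replicate 2 (-0.9957). Dhcr7 (1.06), Scd1 (1.66) and Scd2 (1.00) had higher Dox effects in the Sox2-cKO than in the Nanog-cKO line, where these genes had log2 fold changes of 0.02, -0.10 and -0.05 in the Sox2-cKO line. With median centring the calls of Dhcr7 (0.98) and Scd2 (0.93) were lost. Scd2 also fell below the threshold of 1 in edgeR (0.9974), with TMM scaling (0.9966), and without Nanog-cKO L-EPSC replicate 2 (0.9856), Nanog-cKO L-EPSC +Dox replicate 1 (0.9751) or Sox2-cKO L-EPSC +Dox replicate 2 (0.9945). The groups also differed in other markers: the 9 trophoblast genes summed to between 7756 and 8008 normalized counts before and 46983 and 47907 after Dox in the Oct4-cKO line, between 4176 and 4293 before and 21228 and 21246 after in the Sox2-cKO line, and between 3124 and 3188 before and 3175 and 3202 after in the Nanog-cKO line. The 8 pluripotency genes summed to at most 5048 in Oct4-cKO and 9361 in Sox2-cKO L-EPSCs with Dox, against at least 30814 in the Nanog-cKO line with Dox. Their part in the differences was not tested.

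In each tet-off conversion all 5 control genes were above 0 and past the adjusted p. In either direction 10579, 8754 and 10250 of all 24007 genes passed it in the Oct4-cKO, Sox2-cKO and Nanog-cKO lines. Called higher were 3, 3 and 4 of the 5, against 13.0%, 7.99% and 12.2% of all genes. All 5 were below 0 in J1 D-EPSCs minus ESCs, while 2 were above and 3 below 0 in J1 L-EPSCs minus ESCs. Srebf1, whose SREBP1 protein favours fatty acid genes, had 2605 and 2681 normalized counts in J1 ESCs, 1338 and 1305 in J1 D-EPSCs and 1679 and 1699 in J1 L-EPSCs. In the tet-off lines Srebf1 rose from 960 and 1018 to 1538 and 1612 (Oct4-cKO), from 827 and 846 to 1591 and 1557 (Sox2-cKO) and from 889 and 898 to 2380 and 2331 (Nanog-cKO). With Dox it was at 859 and 885, 1278 and 1268, and 1496 and 1440, differences that were not called.

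Srebf2, whose SREBP2 protein favours sterol genes, had 5699 and 5787 in J1 ESCs, 3078 and 3017 in J1 D-EPSCs and 4408 and 4638 in J1 L-EPSCs. It was at 3187 and 3080, 3995 and 3974, and 2859 and 2797 in Oct4-cKO, Sox2-cKO and Nanog-cKO ESCs. In their L-EPSCs it was at 3770 and 3653, 5381 and 5308, and 5325 and 5159. Only the change in the Nanog-cKO line was called in limma (log2 fold change 0.89), and the other changes were 0.24 and 0.42. With Dox Srebf2 was at 4088 and 3895 in the Sox2-cKO and 3725 and 3664 in the Nanog-cKO line, against 1460 and 1336 in the Oct4-cKO line.

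Insig1 had 1576 and 1519 in J1 ESCs. In the tet-off lines it rose from 682 and 665 to 2330 and 2237 (Oct4-cKO, 3.39-fold), from 848 and 837 to 2047 and 2072 (Sox2-cKO, 2.44-fold) and from 847 and 873 to 2132 and 2234 (Nanog-cKO, 2.54-fold). With Dox it was at 1820 and 2017, 1246 and 1290, and 1366 and 1264, with log2 fold changes of -0.25, -0.70 and -0.73, none of them called. Insig1 thus stayed above its ESC level in every Dox library.

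Stard4 had 1168 and 1115 in J1 ESCs, 637 and 664 in J1 D-EPSCs and 1680 and 1655 in J1 L-EPSCs. It was at 573 and 556, 697 and 689, and 370 and 390 in the tet-off ESCs and at 1483 and 1381, 1280 and 1296, and 1113 and 1110 in the L-EPSCs made from them. With Dox it was at 1331 and 1312, 1615 and 1478, and 681 and 775.

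Scap was called in no comparison. In each tet-off conversion it was above 0 and past the adjusted p but not the fold change. It had 1092 and 1120 in J1 ESCs, 1061 and 1058 in J1 D-EPSCs and 844 and 850 in J1 L-EPSCs. It lay at 894 and 832, 753 and 765, and 380 and 345 in the tet-off ESCs, at 1102 and 1129, 1035 and 891, and 441 and 472 in untreated L-EPSCs, and at 1139 and 1092, 1317 and 1325, and 514 and 501 with Dox. The Nanog-cKO line had the lowest Scap values in each state. Sqle was the other member called in no comparison, with log2 fold changes between -0.55 and 0.57. In the J1 table its values lay between 1664 and 2490 normalized counts, and in the tet-off table between 841 and 1872.

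Levels of different genes were compared per kilobase of exon. The length was the union of all annotated exons of a gene, such as 5104 bases for Hsd17b7 and 3484 for Tm7sf2. Where that exceeds the transcript expressed, the value and the rank of the gene are too low. In J1 ESCs Scd2 led with a mean of 5703 ± 32.1 (SD, n = 2) normalized counts per kilobase, ahead of Fdps (3010 ± 52.9), and Acly and Fasn (2076 and 2067) were not separated by their libraries. In J1 D-EPSCs Fdps (1489) and Acly (1180) were ahead of Scd2 (1018). Scd1 was the fifth member in J1 ESCs, at 1991, and lay at 284 in D-EPSCs. Acly led in all 3 kinds of tet-off ESC, at 1041, 1038 and 1290, and in their untreated L-EPSCs Scd2 led, at 1851, 1807 and 2137, followed by Fdps at 1355, 1745 and 1545. Fasn dropped from 743, 724 and 735 per kilobase in ESCs to 240, 340 and 449 in L-EPSCs. In Nanog-cKO L-EPSCs with Dox, Scd2 (1031) and Fdps (1006) were not separated by their libraries. Tm7sf2 and Hsd17b7 were among the lowest 4 of the 30 genes in each group.

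Genes around the pathway were read from further lists, counted as higher or lower by the same call. Of all genes, 10.8% were higher and 9.98% lower in J1 D-EPSCs than ESCs, and 8.8% higher and 11.5% lower in J1 L-EPSCs than ESCs. In the Oct4-cKO, Sox2-cKO and Nanog-cKO conversions 13.0%, 7.99% and 12.2% of all genes were higher and 15.4%, 11.6% and 14.7% lower. With Dox 8.53%, 7.79% and 2.8% were higher and 10.8%, 7.32% and 2.59% lower. Whether a list differs from all genes was not tested. Of 8 genes that supply acetyl-CoA and NADPH, 5 were lower in J1 D-EPSCs, with Thrsp (-2.41), Me1 (-2.21) and Idh1 (-1.25) at the lower end, and 0 were higher. Me1, the malic enzyme that yields NADPH, had 1922 and 1903 normalized counts in J1 ESCs, 444 and 383 in D-EPSCs and 884 and 921 in L-EPSCs. In the tet-off lines Me1 was 6.50-fold, 4.21-fold and 2.10-fold higher in L-EPSCs, and 4, 3 and 2 of the 8 genes were higher and 0, 1 and 1 lower. Thrsp, a lipogenesis factor, was higher there by 1.64, 2.24 and 3.02, at counts of at most 91.6.

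Of 6 genes of sterol efflux and LXR signalling, 4 were lower in J1 L-EPSCs than in J1 ESCs, with Nr1h3, which encodes LXRα, at -1.53, and Abcg1 and Abca1, both exporters, at -1.51 and -1.17. In J1 D-EPSCs 2 of the 6 were lower. Of all genes 11.5% were lower in the first comparison and 9.98% in the second. Of 12 genes of lipid uptake and esterification, 9, 7 and 7 were higher in L-EPSCs than in ESCs of the Oct4-cKO, Sox2-cKO and Nanog-cKO lines, against 13.0%, 7.99% and 12.2% of all genes, and 0 were lower. Lpl, the lipoprotein lipase, was higher by 2.08, 2.82 and 1.37, and Vldlr, a lipoprotein receptor, by 2.54, 1.57 and 1.73. With Dox this list had 2 genes higher and 1 lower in the Oct4-cKO line, 1 higher and 2 lower in the Sox2-cKO line and 1 higher in the Nanog-cKO line. Lrp8, a lipoprotein receptor, was higher at 1.95 and 1.43 in the Oct4-cKO and Sox2-cKO lines, Fabp3, a fatty acid binding protein, at 1.41 in the Oct4-cKO line, and Lpl at 1.14 in the Nanog-cKO line. Fabp5, of the same family, was lower at -1.06 in the Sox2-cKO line. Soat2, a cholesterol esterifying enzyme, was lower, at -2.67 in the Oct4-cKO and -1.498 in the Sox2-cKO line, at counts of at most 39.5.

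Of 17 genes of fatty acid oxidation, 8, 5 and 6 were higher in L-EPSCs of the tet-off lines, against 13.0%, 7.99% and 12.2% of all genes, and 0 were lower. Among them was Hadh, a dehydrogenase of that route, at 1.38, 1.01 and 1.496. J1 D-EPSCs set against ESCs had 3 of the 17 higher and 3 lower, against 10.8% and 9.98% of all genes. Of 12 genes of glycerolipid synthesis, 4, 5 and 3 were higher in L-EPSCs of the tet-off lines, with Plin2, which coats lipid droplets, at 2.07, 0.82 and 1.13, and 0 were lower. Of 19 genes of elongation and activation, 5, 4 and 7 were higher and 1, 1 and 3 lower, and Acsl3, an acyl-CoA synthetase, was higher by 1.52, 1.32 and 0.94. With Dox 3 of the 19 were higher and 3 lower in each of the Oct4-cKO and Sox2-cKO lines. Acsl5, another acyl-CoA synthetase, was higher at 1.76 and 2.24, and Fads3, of the desaturase family, at 1.82 and 1.23. Elovl1 was higher at 1.33 and Elovl5 lower at -1.32 in the Oct4-cKO line, and Acacb was higher at 1.07 and Elovl7 lower at -1.04 in the Sox2-cKO line. Elovl2 and Elovl4, which lengthen long polyunsaturated chains, were lower, at -2.18 and -2.01 in the Oct4-cKO line and at -2.12 and -1.73 in the Sox2-cKO line. Of 11 genes of the isoprenoid branch, which shares the mevalonate steps but not sterol synthesis, 1 was higher and 1 lower in J1 D-EPSCs, 2, 1 and 4 were higher and 1, 0 and 2 lower in L-EPSCs of the tet-off lines.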

How the data were processed

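Poly(A) RNA-seq libraries of mouse cells (12 groups of 2) were read from 2 deposited tables. The authors aligned trimmed reads with STAR 2.7.9a to mm9, counted them per gene with htseq 0.11.2 and divided the counts by DESeq2 size factors, so the deposited values are a normalized signal of read counts, scaled separately in each table. Strand use in counting is not given in the sources used here. Dividing each column by the value of 1 read gave whole reads for 100% of values within 0.1.

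Values were tested as log2(normalized count + 1) with limma 3.58.1 (R 4.3.3), with all groups of a table in 1 fit, genes with at least 2 reads in total, and Benjamini-Hochberg adjustment. A fold change on that scale understates the change of low genes. Calls needed a log2 fold change beyond 0.6 (states, conversions) or 1 (Dox, differences between lines) together with an adjusted p below 0.05. With 2 libraries a group the smallest exact permutation p is 0.333, so no single-gene permutation test could pass 0.05. Alternatives were edgeR 4.0.16 and DESeq2 1.42.0 on the whole reads, other scalings, pseudocounts, filters and thresholds, groups fitted alone, a replicate block, and leaving out each library. Replicates differed by more than sampling noise in all 12 groups. The scripts were tested on simulated data. The members and lists were chosen with earlier results of these data known. All members were described by counts and ranges, and those called or closest to the threshold were named with values. Sequences are from RefSeq.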

Additional observations from a re-analysis of the deposited data

Results flagged for a closer look

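A test of the difference between lines called 11 effects of members. Of all genes, 5.36% (Oct4-cKO against Sox2-cKO), 8.58% (Oct4-cKO against Nanog-cKO) and 9.16% (Sox2-cKO against Nanog-cKO) were called for conversion. For Dox 6.81%, 14.8% and 11.3% of all genes were called in the same pairs. Whether the members differ from all genes was not tested. For conversion from ESCs to L-EPSCs, the effect on Mvd was lower in the Oct4-cKO than in the Nanog-cKO line by a log2 value of -1.41 ± 0.10 (SE; limma adjusted p = 4.95e-08), and lower in the Sox2-cKO than in the Nanog-cKO line by -1.08 ± 0.10 (1.13e-06).

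For Dox, effects in the Oct4-cKO minus those in the Sox2-cKO line were -1.05 ± 0.039 for Scd2 (limma adjusted p = 1.47e-11), -1.07 ± 0.075 for Fads1 (2.14e-08) and -1.62 ± 0.15 for Fads2 (3.69e-07). Oct4-cKO minus Nanog-cKO effects were -1.20 ± 0.081 for Acaca (limma adjusted p = 5.6e-09), 1.45 ± 0.057 for Scd1 (7.82e-12) and -1.04 ± 0.15 for Fads2 (2.64e-05). Sox2-cKO minus Nanog-cKO effects were 1.06 ± 0.070 for Dhcr7 (limma adjusted p = 7.61e-09), 1.66 ± 0.057 for Scd1 (2.77e-12) and 1.00 ± 0.039 for Scd2 (1.31e-11). The Fads2 value of Oct4-cKO minus Nanog-cKO was -0.8875 without Nanog-cKO L-EPSC +Dox replicate 1 and -0.9957 without Oct4-cKO L-EPSC +Dox replicate 2, inside the threshold of 1. For Sox2-cKO minus Nanog-cKO, median centring took Dhcr7 to 0.9796 and Scd2 to 0.9275, and leaving out 1 library took Scd2 as low as 0.9751. The Mvd value of Sox2-cKO minus Nanog-cKO was -0.9879 without Sox2-cKO ESC replicate 2. Each effect rests on 2 libraries a group.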

How the results depend on the processing

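No called member changed direction under any alternative run, and scaling moved the median of all genes by less than 0.1. The replicate numbers pair nothing in the labels. In the tet-off table the differences between replicates 1 and 2 of a group correlated with those of other groups at -0.028 to 0.040. With the replicate block 26 members were lower in J1 D-EPSCs, and the block changed no call. With the other fold threshold, 12 members were lower in J1 D-EPSCs and 1 in J1 L-EPSCs than in ESCs, against 1436 and 1678 of all 21533 genes. In J1 L-EPSCs 13 were higher than in D-EPSCs, against 620 of all genes. Conversion then gave 9 higher and 1 lower (Oct4-cKO), 8 and 1 (Sox2-cKO) and 0 lower (Nanog-cKO). Of all 24007 genes these were 1894 and 2572, 1078 and 1912, and 2477. Dox gave 12, 3 and 13 lower, against 3573, 2647 and 1146 of all genes. Conversion differences were 2, 10 and 5, against 2403, 3536 and 3551. Dox differences were 7, 10 and 11, against 3097, 5414 and 4383. EdgeR left 1 lower in the Oct4-cKO conversion. Median centring gave 1 lower with Dox in the Sox2-cKO line and 1 Dox difference between Sox2-cKO and Nanog-cKO.

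Leaving out 1 library gave 1 to 2 lower in the Sox2-cKO and in the Nanog-cKO conversion, 0 to 1 lower with Dox in the Sox2-cKO line, 3 to 5 in the Nanog-cKO line, 0 to 1 conversion differences between Sox2-cKO and Nanog-cKO (without Sox2-cKO ESC replicate 2), and 3 to 5 Dox differences between Oct4-cKO and Sox2-cKO (most without Oct4-cKO L-EPSC replicate 2).

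Uncalled log2 values near 0 changed sign, and the cause was not tested. For conversion in the Sox2-cKO line, Mvd was -0.004023 and Tm7sf2 -0.002924 with DESeq2, and Tm7sf2 -0.00043 with median centring. Acly in the Nanog-cKO conversion was 0.01992 with edgeR and 0.01994 with TMM. With Dox, Scap in the Oct4-cKO line was 0.004649 with edgeR and 0.004681 with TMM. Median centring gave -0.04519 for Fdft1 in the Oct4-cKO line, and -0.0254 for Fdft1, -0.002795 for Tm7sf2 and -0.04594 for Dhcr7 in the Sox2-cKO line. Leaving out 1 library gave ranges across 0. For J1 L-EPSCs minus ESCs these were -0.0756 to 0.209 for Tm7sf2 and -0.008486 to 0.1038 for Nsdhl. For conversion they were -0.1251 to 0.01914 for Tm7sf2 (Oct4-cKO), -0.08763 to 0.0919 for Mvd and -0.0826 to 0.08428 for Tm7sf2 (Sox2-cKO), and -0.04685 to 0.2587 for Mvk and -0.04206 to 0.007573 for Acly (Nanog-cKO). With Dox they were -0.02064 to 0.05568 for Fdft1 and -0.0304 to 0.02989 for Scap (Oct4-cKO). In the Sox2-cKO line they were -0.02004 to 0.1469 for Tm7sf2, -0.1912 to 0.04932 for Sc5d, -0.01521 to 0.05574 for Dhcr7, -0.04718 to 0.03168 for Acss2 and -0.08736 to 0.05198 for Acaca. In the Nanog-cKO line they were -0.2885 to 0.01699 for Mvk and -0.2011 to 0.1803 for Ebp. Depth limited Tm7sf2 most, at 62 reads in its lowest library.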
